A study of Homo sapiens with 6 samples.

Results

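The genes described here are 10 that modify, fold or crosslink collagen, PLOD1, PLOD2, PLOD3, P4HA1, P4HA2, P4HB, LOX, LOXL2, SERPINH1 and CRTAP. They were taken by name from a table of 19223 gene symbols, and all 10 were listed. RNA was sequenced from LoVo, an established line of colorectal adenocarcinoma cells, in 6 libraries. The 3 Control libraries came from cells given vehicle, and the 3 DCC-2036 libraries from cells given 2.5 μM DCC-2036, a small-molecule kinase inhibitor. The labels give 48 h for both groups and name no other agent or allele. Both groups rest on 1 cell line, and nothing in the labels says that the 3 libraries of a group came from separate cultures, so the p-values measure the spread between these libraries, which may be technical.

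Procollagen chains are modified in the endoplasmic reticulum while they are made. Prolyl hydroxylases let the triple helix hold together at body temperature, and lysyl hydroxylases prepare the lysines that later carry sugars and crosslinks. SERPINH1 and CRTAP act on the chains in the same compartment, and after secretion lysyl oxidases start the crosslinks between molecules. The hydroxylases need oxygen, iron and 2-oxoglutarate, and in tumours these enzymes are known chiefly for their link with stiff matrix and hypoxia.

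Values are the deposited signal, 1 number per transcript and library that is not in whole reads, and each gene was represented by whichever of its transcripts had the largest average across all libraries. The signal summed to between 38997229 and 40587145 in Control libraries and between 43279603 and 48023306 in DCC-2036 libraries. Reads per library are not given, so no counting interval could be set on a value. A gene was tested where at least 3 libraries reached a signal of 10, and 12725 genes did. Differences are log2 fold changes of (signal + 1), DCC-2036 against Control, with standard errors (SE) from limma, and a gene was called at a Benjamini-Hochberg adjusted p under 0.01 over all 12725 genes. Epithelial markers were plain, with 7 of 10 at a signal of 10 or more in every library and sums of 104483 to 114998 in Control and 148337 to 188447 in DCC-2036. CDH1 and KRT8 were called higher among them and KRT20 lower, and the part of this in the other results was not tested. The intestinal markers VIL1, CDX1 and CEACAM5 stayed between 0 and 4.12, while CDX2 lay between 213 and 365 and KRT20 between 17.7 and 64.1. Of 10 fibroblast markers, 6 reached 10 in some library and only COL1A1 in every library. The 10 summed to between 387 and 472 in Control and between 465 and 569 in DCC-2036. COL3A1 was highest at 27.61 in Control 1 and 51.48 in DCC-2036 1. ACTA2 reached at most 24.59 (Control 1), PDGFRB 16.08 (DCC-2036 2) and COL1A2 12.39 (Control 1). FAP was between 0 and 0.9. DCN, LUM and PDGFRA reached at most 13.36, 7.17 and 4.79, with the highest DCN and LUM in DCC-2036 1. Leukocyte markers summed to no more than 7.5 in any library, with PTPRC at 0 in all 6.

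Of the 10 genes, 9 were tested, and 1 was called, against 41.9% of all genes tested. PLOD1, the lysyl hydroxylase of helical lysines, fell to 44.8% of its Control mean. At a looser limit of 0.05, which 62.2% of all genes tested passed, 3 of the 9 were lower and 1 higher. No gene was called higher by limma at 0.01. An unadjusted p under 0.05 was found for 3 of the 4 with higher means and 3 of the 5 with lower means. At least 62.2% of all genes tested passed that limit in either direction, so these counts are no result about the 10 genes. Of all genes tested, 22.7% were called lower and 19.2% higher, so 1 of 9 lower and 0 of 9 higher are both below those shares. The median log2 fold change was -0.04 for the 9 genes and -0.09 for all genes tested. The groups did not overlap for 6 of the 9, against 71.1% of all genes tested.

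**Figure D1:**
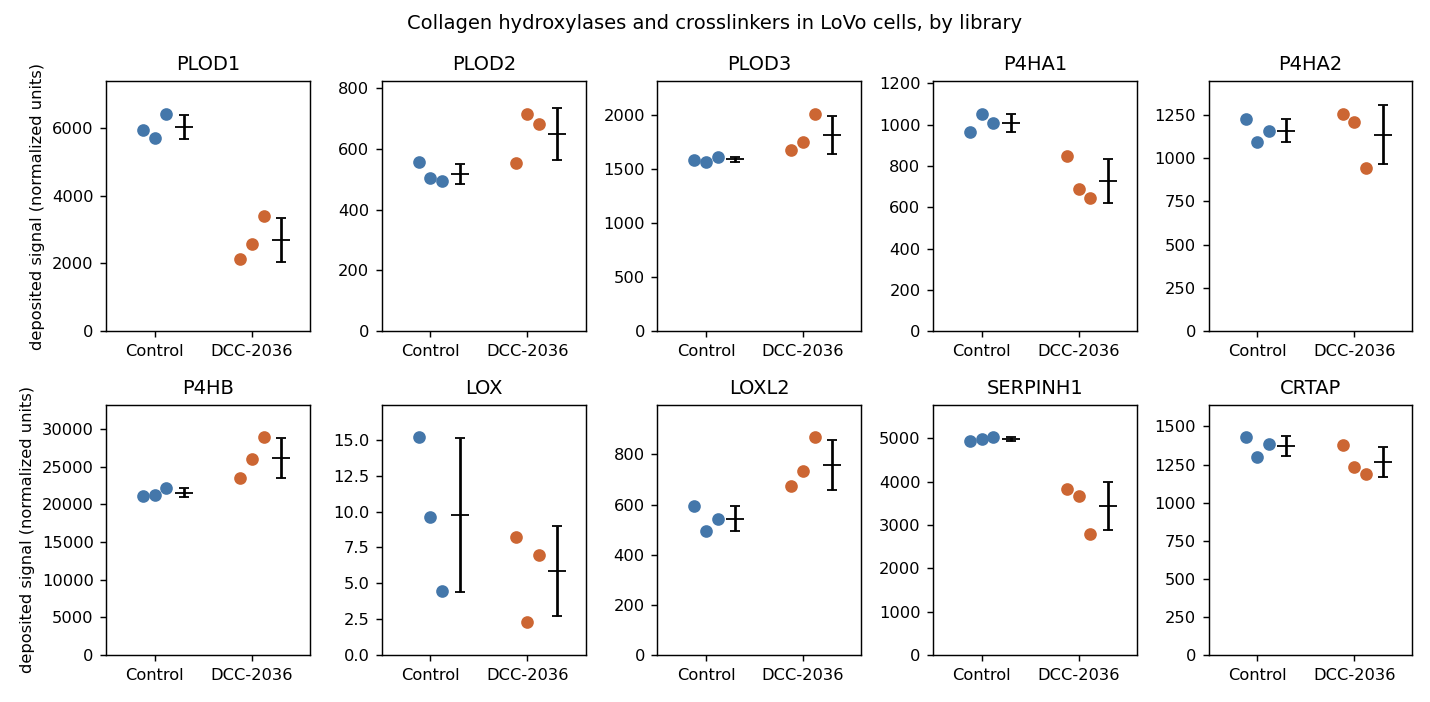
Deposited signal (normalized units, linear axes from 0) of each of the 10 genes in the 3 Control libraries (blue points) and the 3 DCC-2036 libraries (orange points), with the mean and SD of each group in black. PLOD1 lies between 5708 and 6419 in Control and between 2117 and 3404 with DCC-2036, while LOX stays under 16 in every library.

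The levels themselves spanned a wide range, which was compared as signal per kilobase of transcript. Whether the deposited signal already allows for length is not known, and the order depends on this division. Undivided, Control means were 6021 for PLOD1 and 4986 for SERPINH1, and 1371 for CRTAP, 1158 for P4HA2 and 1009 for P4HA1. In Control, P4HB was highest at 8274 ± 233 per kb (SD, n = 3), followed by SERPINH1 at 2169 ± 16.0 and PLOD1 at 2048 ± 123. The libraries of SERPINH1 and PLOD1 overlapped on this scale, so their order is not set. PLOD3 came next at 544 ± 8.68 per kb, then P4HA2 at 452 ± 26.0, P4HA1 at 355 ± 16.0 and CRTAP at 207 ± 9.99. LOXL2 at 153 ± 14.3 per kb and PLOD2 at 139 ± 8.93 overlapped each other, and LOX was last at 1.91 ± 1.05. With DCC-2036, P4HB stood at 10065 ± 1027 per kb, SERPINH1 at 1492 ± 242, PLOD1 at 918 ± 222 and PLOD3 at 621 ± 60.3, and no neighbours among these 4 overlapped. P4HA2 at 443 ± 66.3 per kb was still clear of the next gene, but from P4HA1 at 256 ± 38.1 through LOXL2 at 214 ± 28.2 and CRTAP at 191 ± 14.5 to PLOD2 at 174 ± 23.0 each gene overlapped the next. The prolyl hydroxylase subunit P4HB, the chaperone SERPINH1 and the lysyl hydroxylase PLOD1 thus kept the top 3 places in both groups.

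The lysyl hydroxylases are PLOD1, which acts mainly on lysines within the helix, PLOD2, which acts on the telopeptides at the chain ends, and PLOD3, which also adds sugars to the hydroxylysine it makes. PLOD1 signal was 5937, 5708 and 6419 in Control libraries 1 to 3 and 2117, 2575 and 3404 in DCC-2036 libraries 1 to 3. The highest DCC-2036 library lay well below the lowest Control library, and the DCC-2036 libraries were the more scattered. Mean signal went from 6021 ± 363 to 2699 ± 653 (SD, n = 3 each), a log2 fold change of -1.18 (SE 0.18, 95% interval -1.63 to -0.74, limma adjusted p = 0.00231). In bulk RNA, fewer cells of a type and less RNA per cell cannot be told apart. The log2 fold change of PLOD1 stayed between -1.38 and -1.02 in all 17 other settings tried. PLOD1 lost its call without Control 1 (adjusted p = 0.0111), without Control 3 (0.0123) and without DCC-2036 2 (0.0112), and its adjusted p was 0.00997 without Control 2, 0.00208 without DCC-2036 1 and 0.000498 without DCC-2036 3.

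PLOD2 signal was 556, 503 and 494 in Control and 554, 716 and 682 with DCC-2036. DCC-2036 library 1 lay inside the Control range and the others above it. The log2 fold change of 0.32 (SE 0.13, limma adjusted p = 0.0714) was not called and came to 0.125 with equal totals (adjusted p = 0.39). The other PLOD2 transcript, NM_000935.2, did not overlap, with 524, 487 and 478 in Control and 533, 649 and 648 with DCC-2036. As a row of the transcript fit it was not called either (log2 fold change 0.29, limma adjusted p = 0.0682). PLOD3 signal was 1588, 1565 and 1615 in Control and 1680, 1748 and 2013 with DCC-2036, so that every treated library was above every Control library. The Control values of PLOD3 were close together, the DCC-2036 values less so, and the log2 fold change of 0.19 (SE 0.11, limma adjusted p = 0.174) was not called and turned to -0.01 when the libraries were scaled to equal totals.

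The makeup of lysyl hydroxylase RNA is given here as shares, and how often the shares of other genes are without overlap was not counted. Per kilobase, PLOD1 made up 74.5%, 74.3% and 76.1% of the 3 genes' summed signal in Control and 49.9%, 52.6% and 57.0% with DCC-2036. PLOD3 went from 19.9% ± 0.62 to 36.6% ± 3.0 and PLOD2 from 5.09% ± 0.44 to 10.3% ± 1.26 (SD, n = 3 each). Each share was without overlap between the groups, and since shares add up to the whole, a lower share of one gene raises those of the others. The log2 ratio of PLOD1 to PLOD2 within a library, which no scaling of libraries changes beyond the pseudocount, was 3.54 ± 0.14 in Control and 2.03 ± 0.25 with DCC-2036, a difference of -1.51 (exact permutation test, two-sided, p = 0.1, the smallest that 3 against 3 can give, and 0.167 adjusted over 5 pairs). For PLOD1 to PLOD3 the difference was -1.37 (exact p = 0.1, adjusted 0.167). The ratio of PLOD2 to PLOD3 overlapped between the groups, with a difference of 0.14 (exact p = 0.4, adjusted 0.4). That difference ran from 0.04 to 0.20 when each library was left out in turn.

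**Figure D2:**
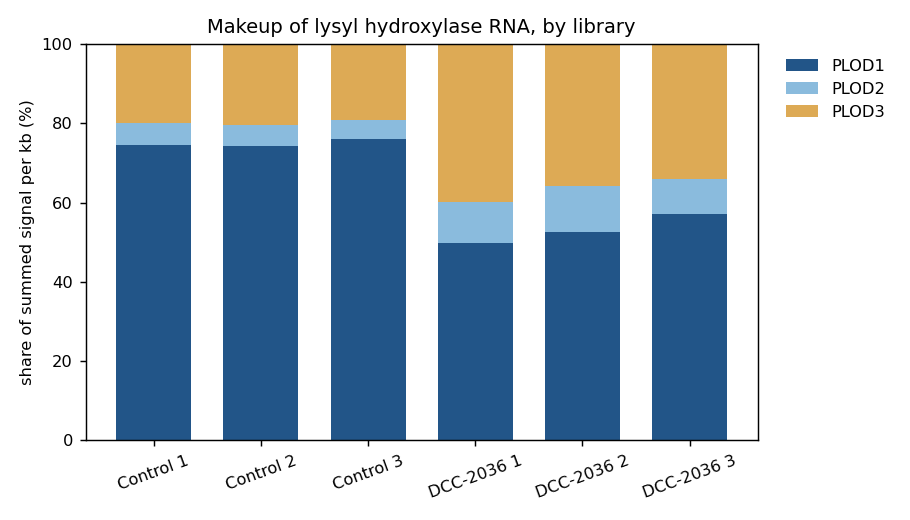
Share (%) of PLOD1, PLOD2 and PLOD3 in their summed signal per kilobase, 1 stacked bar per library. PLOD1 takes between 74.3% and 76.1% in the 3 Control bars and between 49.9% and 57.0% in the 3 DCC-2036 bars.

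To show what stands before these genes, the 250 bases upstream of the RefSeq start of PLOD1, of PLOD2 and of PLOD3, its nearest relatives, are given from GRCh38.p14, 5′ to 3′ on the strand of the gene. Capitals mark GC boxes (GGGCGG) and the core of the hypoxia response element (ACGTG), each looked for on both strands. PLOD1 lies at chr1:11934467-11934716 (plus strand), PLOD2 at chr3:146161185-146161434 (minus strand) and PLOD3 at chr7:101217582-101217831 (minus strand).
PLOD1: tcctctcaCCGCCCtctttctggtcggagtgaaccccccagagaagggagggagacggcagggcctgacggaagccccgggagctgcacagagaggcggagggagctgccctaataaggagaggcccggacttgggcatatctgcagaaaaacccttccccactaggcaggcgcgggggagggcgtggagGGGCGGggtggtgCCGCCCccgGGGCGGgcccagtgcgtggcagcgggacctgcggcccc
PLOD2: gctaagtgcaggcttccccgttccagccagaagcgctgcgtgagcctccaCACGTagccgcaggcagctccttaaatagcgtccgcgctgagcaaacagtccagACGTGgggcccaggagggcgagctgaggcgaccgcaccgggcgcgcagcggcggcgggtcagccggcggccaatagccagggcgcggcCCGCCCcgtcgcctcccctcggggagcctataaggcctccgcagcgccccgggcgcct
PLOD3: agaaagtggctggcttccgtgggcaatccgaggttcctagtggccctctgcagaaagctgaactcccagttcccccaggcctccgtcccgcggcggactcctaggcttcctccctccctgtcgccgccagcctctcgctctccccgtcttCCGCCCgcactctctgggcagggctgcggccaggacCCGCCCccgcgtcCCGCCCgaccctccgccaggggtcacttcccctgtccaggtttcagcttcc
PLOD1 held 4 GC boxes, at -242, -60, -47 and -38 from the start, and no ACGTG. PLOD2 held 2 ACGTG cores, at -200 and -146, and 1 GC box at -58, and PLOD3 held 3 GC boxes, at -100, -64 and -51. A match is a description of letters and not a known site. RefSeq starts were matched for 9 of the 10 genes, with 12 promoters between them. ACGTG stood in 6 of the 12 against 18.5% of 35116 RefSeq promoters of the same length, and GGGCGG in 7 of the 12 against 42.6%. By gene, ACGTG was found for 4 of 9 and GGGCGG for 7 of 9, since 3 of the promoters with ACGTG are of LOX, and 2 of these overlap and hold the same core. Shares by gene over all RefSeq genes were not counted, so the counts by gene have no background of their own. The endoplasmic reticulum stress element, also looked for on both strands, was in 0 of the 12 and in 0.074% of all promoters.

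Prolyl 4-hydroxylase is built of catalytic subunits, P4HA1 or P4HA2, and of P4HB, which is also a protein disulfide isomerase in its own right. P4HA1 signal was 963, 1054 and 1010 in Control and 850, 688 and 644 with DCC-2036. All 3 treated libraries were below all 3 Control libraries. The mean with DCC-2036 was 72.1% of that in Control, and the log2 fold change of -0.48 (SE 0.13, 95% interval -0.80 to -0.16, limma adjusted p = 0.0194) did not pass the 0.01 limit. It did pass with a mean-dependent variance in limma (adjusted p = 0.00893) and without DCC-2036 1 (adjusted p = 0.00375), and its adjusted p ran from 0.00375 to 0.0712 over the 17 settings.

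P4HA2 signal was 1226, 1093 and 1155 in Control and 1257, 1209 and 941 with DCC-2036. The treated libraries lay on both sides of the Control range. The log2 fold change was -0.04 (SE 0.14, limma adjusted p = 0.824), its 95% interval ran from -0.38 to 0.30, and its sign turned in 3 of the 17 settings, while it came to -0.24 with equal totals. P4HA1 thus made up 44.0% ± 2.53 of the signal per kilobase of both catalytic subunits in Control and 36.6% ± 2.37 with DCC-2036 (SD, n = 3 each). The log2 ratio of P4HA1 to P4HA2 differed by -0.44 with DCC-2036, without overlap (exact permutation test, two-sided, p = 0.1, adjusted 0.167).

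P4HB had the highest signal of the 10 genes, with 21074, 21312 and 22224 in Control and 23578, 26097 and 28920 with DCC-2036. Every treated library was above every Control library, and the mean was 122% of the Control mean. The log2 fold change of 0.28 (SE 0.11, limma adjusted p = 0.0682) was not called. Scaled to equal totals, it came to 0.08 (limma adjusted p = 0.462).

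Transcripts of P4HA1 gave a second view of this gene. The deposited table lists 4 of them, and 2, NM_000917.3 and NM_001017962.2, differ in GENCODE 29 only in which of a pair of 71-base coding exons they carry as exon 9 of 15. The exons are shown because the pair is what the comparison turns on. They lie on the minus strand of GRCh38, at chr10:73043887-73043957 for NM_000917.3 and at chr10:73044981-73045051 for NM_001017962.2, and capitals mark the bases that differ.
P4HA1 exon of NM_000917.3: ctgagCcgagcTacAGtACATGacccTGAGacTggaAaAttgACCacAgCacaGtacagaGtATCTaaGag
P4HA1 exon of NM_001017962.2: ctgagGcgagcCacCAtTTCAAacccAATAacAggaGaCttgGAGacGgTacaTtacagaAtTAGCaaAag
Of the 71 bases, 43 were equal. How reads were counted per transcript is not given. Values of transcripts of this gene lay close together, so they were taken to include reads of the exons that transcripts share. On that reading, only the difference between values bears on the exons. The signal of NM_000917.3 exceeded that of NM_001017962.2 by 25.4, 44.8 and 30.4 in the Control libraries and differed from it by -48.7, -23.9 and -55.0 in the DCC-2036 libraries. The sign was positive in all 3 Control libraries and negative in all 3 treated ones.

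As a log2 ratio, NM_000917.3 to NM_001017962.2 was 0.05 ± 0.01 in Control and -0.09 ± 0.04 with DCC-2036, a difference of -0.14 (exact permutation test, two-sided, p = 0.1, the smallest possible). It ran from -0.15 to -0.12 when each library was left out in turn or the pseudocount was 0.1. The comparison was chosen after its values were seen. Among 48675 pairs of transcripts of 1 symbol with a mean signal of at least 100 each, 30.3% did not overlap between the groups, and 8.1% did not overlap and differed by at least as much. Those pairs share genes and may share reads, and the median absolute difference among them was 0.02. As rows of a fit over all 32323 transcripts tested, of which 42.2% were called and 22.4% called lower, NM_000917.3 was called lower (log2 fold change -0.62, limma adjusted p = 0.00863), and so was NM_001142596.1 (-0.57, limma adjusted p = 0.00940). NM_001017962.2 (-0.49, adjusted p = 0.0184) and NM_001142595.1 (-0.48, adjusted p = 0.0187) were not.

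NM_001142596.1 lacks the 54-base exon 11 of NM_000917.3 (chr10:73016846-73016899, minus strand). Its signal was below that of NM_000917.3 by 122, 130 and 120 in Control and by 81.9, 59.5 and 36.4 with DCC-2036. The difference was smaller in every treated library, and the log2 ratio went from 0.18 ± 0.01 to 0.13 ± 0.03 (exact p = 0.1). The P4HA1 transcripts matched to the same GENCODE model, NM_001017962.2 and NM_001142595.1, differed by at most 1.09% in any library. Their log2 ratio was nevertheless also without overlap between the groups, with a difference of -0.0076 (exact permutation test, p = 0.1). Lack of overlap alone therefore does not set the pair with alternative exons apart.

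P4HA2 has a similar pair of alternative exons, of 60 and 66 bases, both exon 12 of 15. NM_001017973.1, with the shorter one, exceeded NM_004199.2, with the longer one, by 110, 122 and 121 in Control and by 154, 133 and 88.02 with DCC-2036. The groups overlapped, and the log2 ratio differed by 0.01 (exact p = 0.5). None of the 5 P4HA2 transcripts was called, with limma adjusted p from 0.761 to 0.918.

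PLOD2 is made with or without a 63-base exon, the 14th of 20 in GENCODE 29 (chr3:146077862-146077924, GRCh38, minus strand), and the longer form is the one described as the telopeptide enzyme.
PLOD2 exon: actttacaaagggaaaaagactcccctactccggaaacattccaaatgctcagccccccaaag
The signal of NM_182943.2, which holds the exon, exceeded that of NM_000935.2, which does not, by 32.0, 15.8 and 16.6 in Control and by 20.8, 67.0 and 34.1 with DCC-2036. The largest value was in DCC-2036 library 2, and the groups overlapped. The log2 ratio differed by 0.03 (exact permutation test, two-sided, p = 0.5). The PLOD1 transcripts NM_000302.3 and NM_001316320.1 differed by at most 0.344% in any library, and both were called lower as rows of the transcript fit (limma adjusted p = 0.00217 and 0.00219).

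**Figure D3:**
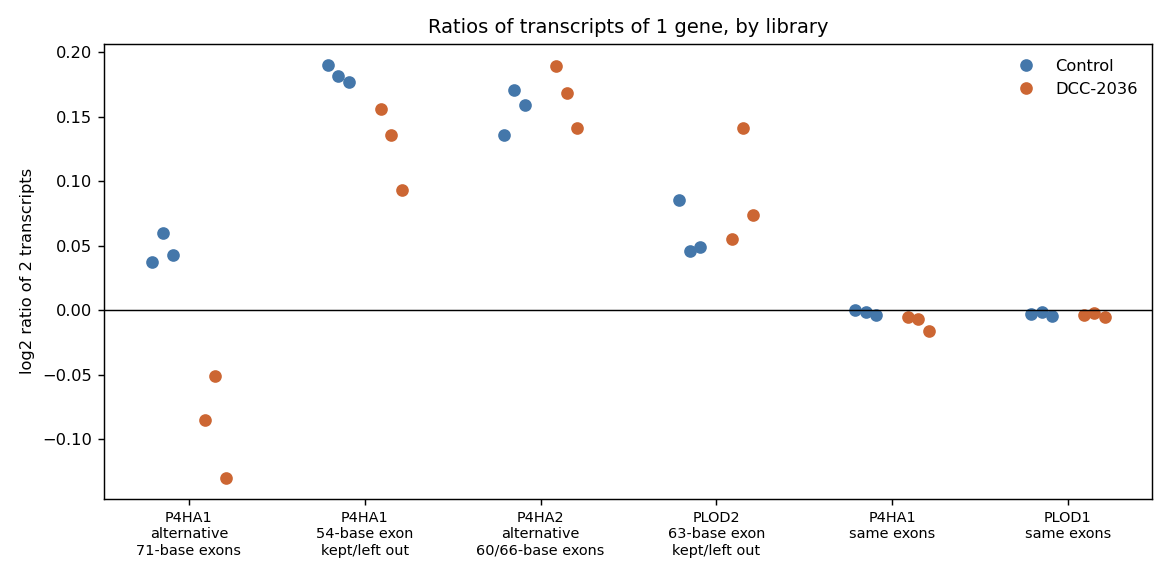
Log2 ratio of the signals of 2 transcripts of 1 gene in each Control library (blue) and DCC-2036 library (orange), for 6 pairs of transcripts. The pair of P4HA1 transcripts with alternative 71-base exons is above 0 in every Control library and below 0 in every DCC-2036 library. The P4HA2 and PLOD2 pairs overlap between the groups. The pairs matched to the same GENCODE model stay near 0, and whether their RefSeq exons are the same was not tested.

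Among the helpers of folding, SERPINH1 (HSP47) is the chaperone that binds the procollagen triple helix, and CRTAP is the scaffold of the complex that 3-hydroxylates proline. SERPINH1 signal was 4953, 4980 and 5026 in Control and 3826, 3671 and 2796 with DCC-2036. The Control libraries lay within a narrow band, all 3 treated libraries were below it, and DCC-2036 library 3 was the lowest. The mean was 68.8% of that in Control (4986 ± 36.9 against 3431 ± 555, SD, n = 3 each), and the log2 fold change was -0.55 (SE 0.14, 95% interval -0.89 to -0.21, limma adjusted p = 0.0150), short of the 0.01 limit. SERPINH1 passed that limit with libraries scaled to equal totals (adjusted p = 0.00988), with a mean-dependent variance (0.00406), without DCC-2036 1 (0.00929) and without DCC-2036 3 (0.00796). Both SERPINH1 transcripts had near-equal log2 fold changes, -0.55 each.

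CRTAP signal was 1428, 1298 and 1386 in Control and 1375, 1236 and 1191 with DCC-2036. The groups overlapped, and the log2 fold change of -0.12 (SE 0.11, limma adjusted p = 0.368) had a 95% interval from -0.37 to 0.14 and came to -0.31 with equal totals (adjusted p = 0.0688).

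LOXL2 and LOX are copper-dependent amine oxidases that turn lysines into the aldehydes from which crosslinks form. LOXL2 signal was 595, 494 and 544 in Control and 673, 734 and 868 with DCC-2036. Every treated library was above every Control library, and the mean was 139% of the Control mean. The log2 fold change of 0.47 (SE 0.14, 95% interval 0.15 to 0.80, limma adjusted p = 0.0226) was not called in any of the 16 settings that kept the 0.01 limit. With equal totals it came to 0.28 (adjusted p = 0.0907), past neither limit.

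LOX signal was 15.2, 9.64 and 4.44 in Control and 8.26, 2.28 and 6.97 with DCC-2036. The groups overlapped, and LOX did not reach 10 in 3 libraries and was not tested. LOX has 3 listed transcripts, and the groups overlapped for the others too. NM_001178102.2 was at 13.24, 10.55 and 6.32 in Control and 8.24, 3.31 and 3.63 with DCC-2036. NM_001317073.1 was at 13.27, 9.68 and 4.46 in Control and 8.23, 1.18 and 3.59 with DCC-2036. Low values such as these were distributed differently in the groups. Of the 45006 transcripts, 3919 were at 0 in some but not all Control libraries and 0 in some but not all DCC-2036 libraries, and 6692 DCC-2036 values but 0 Control values lay above 0 and under 0.5. The log2 ratio of LOX to LOXL2 differed by -1.12 with overlap (exact permutation test, two-sided, p = 0.2, adjusted 0.25), and by between -1.55 (without Control 3) and -0.68 (without DCC-2036 2) when each library was left out in turn. It rests on these low LOX values.

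**Figure D4:**
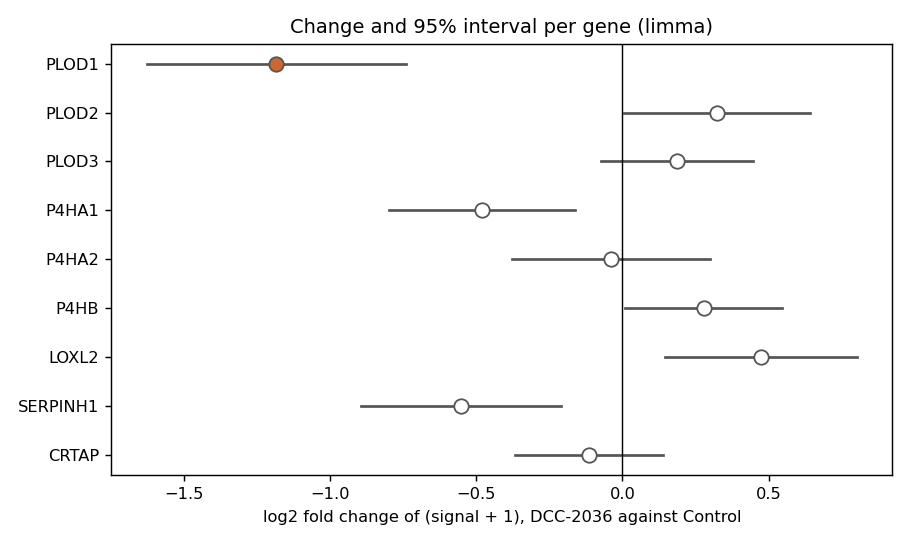
Log2 fold change of (signal + 1), DCC-2036 against Control, with the 95% interval from limma, for the 9 tested genes. The filled point, PLOD1, is the gene with an adjusted p under 0.01, and the intervals of PLOD3, P4HA2 and CRTAP include 0.

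Other genes of the pathway were taken from lists chosen with earlier results of these data known, and their counts are to be read against the 19.2% of all genes tested that were called higher and the 22.7% called lower. Of 9 tested genes that act beside the 10 on prolines and lysines in the endoplasmic reticulum, 4 were called higher, 1 lower and 4 not at all, so 5 of 9 were called against 41.9% of all genes, and the median log2 fold change was 0.46. COLGALT1, the collagen galactosyltransferase, went from a mean signal of 3902 to 5377 (log2 fold change 0.46, limma adjusted p = 0.00839). The prolyl isomerases FKBP10 (0.62) and FKBP14 (0.89) and P3H1, the prolyl 3-hydroxylase that CRTAP holds (0.48), were the other genes called higher. P3H4, a partner of PLOD1 in a lysyl hydroxylase complex, fell from 595 to 283 (log2 fold change -1.07, limma adjusted p = 0.000410), in every one of the 17 settings as well. PPIB, the cyclophilin of the CRTAP complex and the most abundant gene of the list, had a log2 fold change of 0.19 (limma adjusted p = 0.218). The higher calls of this list were less steady, with 0 or 1 without any one Control library or DCC-2036 2, and 1 with equal totals or with no filter on low values.

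Among 6 other oxidases and crosslinkers, LOXL1 rose from 82.7 to 186 (log2 fold change 1.16, limma adjusted p = 0.000964) and LOXL3 fell from 234 to 89.2 (-1.39, limma adjusted p = 0.00165). LOXL4, the peroxidasin PXDN and the transglutaminases TGM1 and TGM2 were not called. The lysyl oxidase family therefore had 1 gene called in each direction, with LOXL2 and LOXL4 uncalled and LOX untested.

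P4HB is a disulfide isomerase, and of 10 tested isomerases and oxidases related to it 8 were called higher and 0 lower by limma, against 19.2% and 22.7% of all genes, with a median log2 fold change of 0.57. They were ERP29 (1.07), PDIA5 (1.04), ERO1A (0.98), PDIA6 (0.72), TMX1 (0.58), PDIA3 (0.55), TXNDC5 (0.55) and ERP44 (0.48). PDIA4 (-0.03) and ERO1B (0.34) were not called. The count of 8 went to 4 with equal totals or with no filter on low values, and to 2 without any one Control library or DCC-2036 2. PDIA5 and ERP29 were called in every setting.

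Of 13 tested genes of procollagen export and processing, 5 were called higher, 1 lower and 7 not, with a median of 0.38. These 6 of 13 are near the 41.9% called among all genes. MIA3 (TANGO1), the receptor that loads procollagen into carriers, rose from 841 to 1554 (log2 fold change 0.88, limma adjusted p = 0.000962), and MIA2 (0.62), SEC13 (0.74), SEC23A (0.52) and TLL2 (0.71) were also called higher. The procollagen C-proteinase enhancer PCOLCE2 fell (-0.69). Without any one Control library or DCC-2036 2, 1 or 2 were called higher and 0 lower, and 3 were called higher with equal totals or with no filter on low values.

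Of 26 listed collagen chains, the substrates of all these enzymes, 20 were tested, of which 3 were called higher, 4 lower and 13 not, with a median of 0.28. The 7 of 20 called are below the 41.9% of all genes, so the count is no result about these chains. COL6A1 rose from 2262 to 4865 (log2 fold change 1.10, limma adjusted p = 0.000887), and COL17A1 (1.03) and COL12A1 (0.91) were also called higher. COL5A2 fell from 73.0 to 20.8 (-1.76, limma adjusted p = 0.000326), and COL27A1 (-1.31), COL13A1 (-0.96) and COL4A5 (-0.72) were also called lower. COL1A1, a chain of type I collagen, had a mean signal of 376 in Control and 457 with DCC-2036 and was not called (limma adjusted p = 0.0902). In 4 of the 6 fits that left out a library, those without any one Control library or DCC-2036 2, 2 chains were called lower, and 1 chain was called higher without Control 2 or DCC-2036 2.

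The collagen hydroxylases share their chemistry with the dioxygenases of oxygen sensing, and several are known targets of hypoxia. Of the 5 tested oxygen sensors and relatives, EGLN1 was called higher (0.73), and EGLN2 (-1.56) and HIF1AN (-1.34), which hydroxylate the hypoxia-inducible factors, were called lower, while EGLN3 and P4HTM were not called. Of a list of 12 genes, 10 known as hypoxia-inducible and HIF1A and EPAS1, which encode subunits of the factors themselves, SLC2A1 (1.33), HIF1A (1.26) and VEGFA (1.01) were called higher, ADM (-0.50), ANKRD37 (-1.60) and CA9 (-1.58) lower, and 6 not, among them LDHA, the most abundant (-0.17, limma adjusted p = 0.170). The 6 of 12 called are near the 41.9% of all genes, and the median of the 12 was -0.02. Without any one Control library or DCC-2036 2, 0 of the 5 oxygen sensors were called higher and 1 lower, and EGLN1 also lost its call with equal totals and with no filter on low values. Without any one Control library, 0 of the 12 genes were called lower, and ADM lost its call in 9 of the 17 settings, among them scaling by the median of ratios or the upper quartile and no filter on low values. P4HA1, PLOD2 and LOX, all known to be induced in hypoxia, were not called here or, for LOX, not tested. P4HA1 holds 1 ACGTG core, at -86 of its promoter (chr10:73096867-73097116, GRCh38.p14, minus strand), shown with that core in capitals for comparison with PLOD2.
P4HA1: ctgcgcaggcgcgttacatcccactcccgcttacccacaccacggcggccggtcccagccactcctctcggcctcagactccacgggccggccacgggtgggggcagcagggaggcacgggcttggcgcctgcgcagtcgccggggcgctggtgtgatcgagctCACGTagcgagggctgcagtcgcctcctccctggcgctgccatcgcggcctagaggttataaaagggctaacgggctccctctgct
Each against its own Control mean, PLOD2 was higher and P4HA1 lower with DCC-2036, at log2 fold changes of 0.32 and -0.48, neither called.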

How the data were processed

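The 6 libraries of LoVo RNA were grouped by the treatment in the labels. The labels give 48 h and the paper's figure legend a shorter time. RNA was extracted with Trizol and libraries were made with Nextera XT. The authors deposited a normalized signal per RefSeq transcript, which is not in whole reads. How it was normalized, the aligner, counter and build are not given in the sources used here. The deposited log2 fold changes and the deposited p-values (and q-values) of the authors' own comparison were not used.

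A count test had been planned where the table held reads. Because its values are not read counts, the test was limma 3.58.1 (R 4.3.3) on log2(signal + 1) without covariates, two-sided, with 1 transcript per symbol and a signal of at least 10 in at least 3 libraries. The study's methods name no test for the RNA sequencing, and the limit of 0.01 follows the key of its volcano plot. Exact permutation tests used scipy 1.17.1 in Python 3.11.15. Exons and lengths came from GENCODE 29 (GRCh38) through RefSeq accessions, and promoters from RefSeq (GRCh38.p14). The code was tested on simulated data. The genes and lists, and so the genes named (the 10, called genes of each list and its most abundant gene), were chosen with earlier results of these data known. COL1A1 and other uncalled genes were named after their values were seen. Alternatives were other scalings, filters, pseudocounts, limits and transcripts, a variance trend, a replicate block and leaving out each library.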

Additional observations from a re-analysis of the deposited data

How the results depend on the processing

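PLOD1, P4HA1, SERPINH1, CRTAP, PLOD2, P4HB and LOXL2 kept their direction in all 17 settings. PLOD3 turned to -0.012 and PPIB to -0.0079 with equal totals. P4HA2 turned to 0.043 with scaling by the median of ratios, to 0.0038 without Control 1 and to 0.091 without DCC-2036 3, and was between -0.117 and 0.091 over the fits that left out a library. Over all genes tested, the median change (log2) was -0.09 as deposited, -0.29 with equal totals, -0.0077 with the median of ratios and -0.07 with the upper quartile. With equal totals 1669 genes were called higher and 3442 lower, against 2442 and 2887. Of the 10 genes, the number called lower, 1, was 2 with equal totals (PLOD1 and SERPINH1), 3 with a variance trend (PLOD1, P4HA1 and SERPINH1) and 2 with all transcripts as rows, counted by symbol (PLOD1 and P4HA1). At a limit of 0.05 3 were lower and 1, LOXL2, higher. Without 1 library it was 0 to 3, at 0 without Control 1, Control 3 or DCC-2036 2, at 2 without DCC-2036 3 and at 3 without DCC-2036 1. Calls over all genes then ran from 928 to 2675 higher and from 1514 to 3507 lower. With all transcripts as rows, 6379 were higher and 7250 lower.

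Libraries with the same number did not deviate together (correlations of 0.081, -0.035 and -0.0033), so the numbers were not taken as pairs. With a replicate block, 1202 genes were called higher and 1909 lower, and 1 of the 10 genes, PLOD1, lower. The block left 0 genes called higher among the other prolyl and lysyl modifiers, 2 among the relatives of P4HB, 2 in export and processing and 0 among the oxygen sensors (EGLN1 lost its call), and 0 called lower among the other oxidases (LOXL3 lost its call), 0 in export and 1 on the hypoxia list. Of the collagen chains it left 2 higher and 3 lower, without COL12A1 and COL4A5, and COL13A1 lost its call with a variance trend. Depth per library is unknown, so no counting limit could be set, LOX included. EdgeR and DESeq2 were not run, since the table holds no read counts.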
